A study of Mus musculus with 4 samples.

Results

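The genes described here are 9 rows of a gene count matrix with 31053 rows: the tissue inhibitors of metalloproteinases Timp1, Timp2, Timp3 and Timp4, the membrane-anchored inhibitor Reck, and the secreted proteases Adamts1, Adamts4, Adamts5 and Adamts9. They were taken by name and not by a rule on their values, but with earlier results of these data known. TIMP proteins bind the catalytic site of matrix metalloproteinases (MMPs), and TIMP3, which stays bound to the extracellular matrix, also inhibits ADAMTS and ADAM proteases. RECK inhibits MMPs at the cell surface. ADAMTS1, ADAMTS4, ADAMTS5 and ADAMTS9 cleave large proteoglycans such as aggrecan and versican, and ADAMTS4 and ADAMTS5 are the aggrecanases best known for the loss of aggrecan from cartilage. In the growth plate, mineralized cartilage is removed as vessels and osteoblasts enter at the chondro-osseous junction.

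The data are single-cell RNA-sequencing counts from the proximal and distal tibia of 1 male mouse at postnatal day 6, with both tibiae pooled and the secondary ossification centres left out. The mouse was Col10a1Cre;Rosa26-Tdtomato;Irx3 +/Δ;Irx5 +/-, an Irx3/5 heterozygous control. The study writes the Irx3 allele as +/ΔHC, its notation for an allele deleted by Col10a1Cre, while Irx5 +/- is shared by all cells. The Irx3 dose may thus be lower in cells where Col10a1Cre has acted, and its part in the comparisons below was not tested. Col10a1Cre acts in hypertrophic chondrocytes (HCs) and marks them and their descendants through the Rosa26-Tdtomato reporter, which was read from its WPRE sequence. The 4 GEO entries are sequencing entries of this 1 library. Without a second library, no difference below was tested against the spread between animals, and cells are not replicates.

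The matrix held 14181 barcodes with a median of 8235 UMIs (unique molecular identifiers, which count every captured transcript once), and 8256 cells passed the filters with a median of 13958 UMIs. The 9 genes were left out of the genes used for clustering. Clusters were named from marker lists, which gave 11 classes of the skeletal, vascular and fibroblastic stroma with 4347 cells and 10 blood-lineage classes with 3322 cells, while 587 cells (7.11%) stayed unnamed. Of the unnamed cells, 197 were called doublets. In 18 of the 21 classes every marker of the list used to check the class had UMIs. The cycling chondrocyte-like class was checked on the maturing list. It was named from a chondrocyte list and Top2a in at least 50% of its cells. Phospho1 had no UMI in the HC-like class, nor Calcr in the osteoclast-like class, nor Vsig4 in the macrophage-like class. The 741 maturing chondrocyte-like cells were named from markers among their 30 leading genes, while their 10 leading genes held Ucma of the resting list and none of their own. At a finer clustering 13 of these 741 cells were Schwann-like, and the borders between the resting, maturing and cycling classes moved with the settings. The names were rebuilt here and may differ from those of the study.

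Levels are UMIs of a gene per 1000000 UMIs of a class (CPM), with exact Poisson intervals at 95% that cover counting error only. Because each UMI is read near the 3′ end of a transcript, levels were not divided by gene length. How well each transcript is captured can differ between genes and was not measured. Red cell precursors served as a measure of free RNA. In the 636 erythroid-like cells the levels were 9.29 CPM for Timp1, 3.60 CPM for Timp2, 6.78 CPM for Timp3, 0.670 CPM for Reck, 3.60 CPM for Adamts1, 0.586 CPM for Adamts4, 0.754 CPM for Adamts5 and 1.67 CPM for Adamts9, and Timp4 had no UMI. Levels of this size in other classes were read as background. Clusters of erythroid-like cells differed for Timp3, at 13.5 CPM (10.1 to 17.7) in 113 cells and 3.49 CPM (2.32 to 5.04) in 523 cells. The cartilage gene Acan had 69.4 CPM in erythroid-like and 724 CPM in T or NK-like cells. Whether this background serves every class was not tested.

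In GRCm38 with the GENCODE M21 annotation, Timp1 lies on chromosome X at 20870166 to 20874735, Timp3 on chromosome 10 at 86300372 to 86349506, and Timp4 on chromosome 6 at 115241892 to 115252205. Each of these 3 genes sits whole inside a synapsin gene on the opposite strand: Timp1 in Syn1, Timp3 in Syn3 and Timp4 in Syn2. Transcripts of the hosts were scarce, with at most 8.80 CPM of Syn1, 10.2 CPM of Syn3 and 4.49 CPM of Syn2 in any class. Timp2 lies on chromosome 11 at 118301069 to 118355740, and Reck on chromosome 4 at 43875530 to 43944806. Adamts1 (chromosome 16, 85793827 to 85803113) and Adamts5 (chromosome 16, 85856173 to 85901828) are neighbours on the same strand, 53059 bases apart with no protein-coding gene between them. Adamts9 lies on chromosome 6 at 92772699 to 92943492. It overlaps the noncoding genes A730049H05Rik (at most 10.2 CPM) and Gm15737 (0 UMIs) on the opposite strand, and Timp2 overlaps Cep295nl (at most 3.59 CPM) on the same strand. Adamts4 lies on chromosome 1 at 171250421 to 171260637.

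Timp1, a broad inhibitor of soluble MMPs, was high in bone-forming cells and in cartilage. Its level was highest in mature osteoblast-like cells, at 993 CPM (972 to 1013, 9069 UMIs in 438 cells). HC-like cells followed at 685 CPM (658 to 713), ahead of resting chondrocyte-like cells at 604 CPM (564 to 647) and maturing chondrocyte-like cells at 593 CPM (581 to 606), whose intervals overlapped. Pre-hypertrophic chondrocyte (pre-HC)-like cells stood at 368 CPM, immature osteoblast-like cells at 349 CPM and cycling chondrocyte-like cells at 286 CPM. The pre-HC-like class held clusters of unlike level. The 252 cells led by Ihh and Cdkn1c had 628 CPM (611 to 646), nearer to HC-like cells, while the 575 cells led by Il17b and Gdf10 had 207 CPM (199.6 to 215). Timp1 was low in endothelial-like cells at 57.6 CPM (53.0 to 62.6), the lowest of the 11 stromal classes. Pericyte or smooth muscle-like cells had 179 CPM (155 to 206). Timp1 stood between 8.05 and 25.4 CPM in 9 of the 10 blood-lineage classes. The exception was the T or NK-like class at 84.9 CPM, which rested on 21 UMIs in 4 of 30 cells. The same class carried 4704 CPM of the cartilage gene Col2a1.

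Timp2, which together with MMP14 activates pro-MMP2, was highest in fibroblast-like cells and was also found in phagocytes. Fibroblast-like cells had 826 CPM (797 to 856, 3097 UMIs), with 887 CPM in the cluster led by Mfap5 and Tnmd and 763 CPM in the cluster led by Aspn and Postn. CXCL12-abundant stromal cells, the adipogenic and osteogenic reticular cells of the marrow, had 474 CPM (446 to 503) and immature osteoblast-like cells 443 CPM (427 to 461), with overlapping intervals. Mature osteoblast-like cells had 226 CPM (216 to 236). Among chondrocytes the order ran from 295 CPM in resting to 77.0 CPM in pre-HC-like cells, the lowest level of any stromal class. Among the 9 genes, Timp2 had the highest level in macrophage-like and osteoclast-like cells: macrophage-like cells had 349 CPM (328 to 371) and osteoclast-like cells 237 CPM (223 to 252), against 18.6 CPM (14.9 to 23.0) in monocyte-like cells. Among the 4 macrophage-like clusters it ranged from 166 to 461 CPM. T or NK-like cells had 158 CPM from 39 UMIs.

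Timp3, the matrix-bound inhibitor of ADAMTS proteases, was highest in endothelial-like cells at 569 CPM (554 to 584, 5588 UMIs) and in HC-like cells at 484 CPM (462 to 508). Pericyte or smooth muscle-like cells, fibroblast-like cells and immature osteoblast-like cells followed at 306, 297 and 281 CPM, with neighbouring intervals that overlapped. Chondrocyte-like classes before hypertrophy had 113 to 176 CPM. Mature osteoblast-like cells, where Timp1 peaked, had the lowest level of the stromal classes, 84.5 CPM (78.6 to 90.7). In the blood-lineage classes Timp3 stood between 2.27 and 24.3 CPM, with 7 UMIs in 216 macrophage-like cells.

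Timp4 was close to absent at this depth. It had 33 UMIs in the 8256 cells, and CXCL12-abundant stromal cells had the most, at 6.07 CPM (3.32 to 10.2, 14 UMIs in 10 of 207 cells). Pericyte or smooth muscle-like cells followed at 4.64 CPM (5 UMIs) and endothelial-like cells at 1.02 CPM (10 UMIs). The 3322 blood-lineage cells held 0 UMIs, which allows a level of up to 0.0619 CPM by the limit of 3 counts, and the 107 HC-like cells held 0 UMIs, which allows up to 0.841 CPM.

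Reck, the membrane-anchored inhibitor that also acts with ADGRA2 in WNT7 signalling, was found at low levels. Resting chondrocyte-like cells had 56.1 CPM (44.3 to 70.0, 78 UMIs) and fibroblast-like cells 48.0 CPM (41.3 to 55.6), which do not differ beyond their counting intervals. The resting level was 25.9 to 34.2 CPM in 5 other clusterings and filters that put more cells in this class. CXCL12-abundant stromal cells had 34.3 CPM (27.1 to 42.7) and maturing chondrocyte-like cells 25.3 CPM. Mature osteoblast-like cells (8.10 CPM) and endothelial-like cells (10.2 CPM) were lowest among the stroma. Among the blood lineages, neutrophil-like cells stood out: they had 19.1 CPM (15.9 to 22.7, 125 UMIs in 99 of 544 cells), close to HC-like cells at 18.0 CPM, whereas granulocyte progenitor-like cells had 2.79 CPM and monocyte-like cells 1.28 CPM. T or NK-like cells had 12.1 CPM from 3 UMIs.

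**Figure D1:**
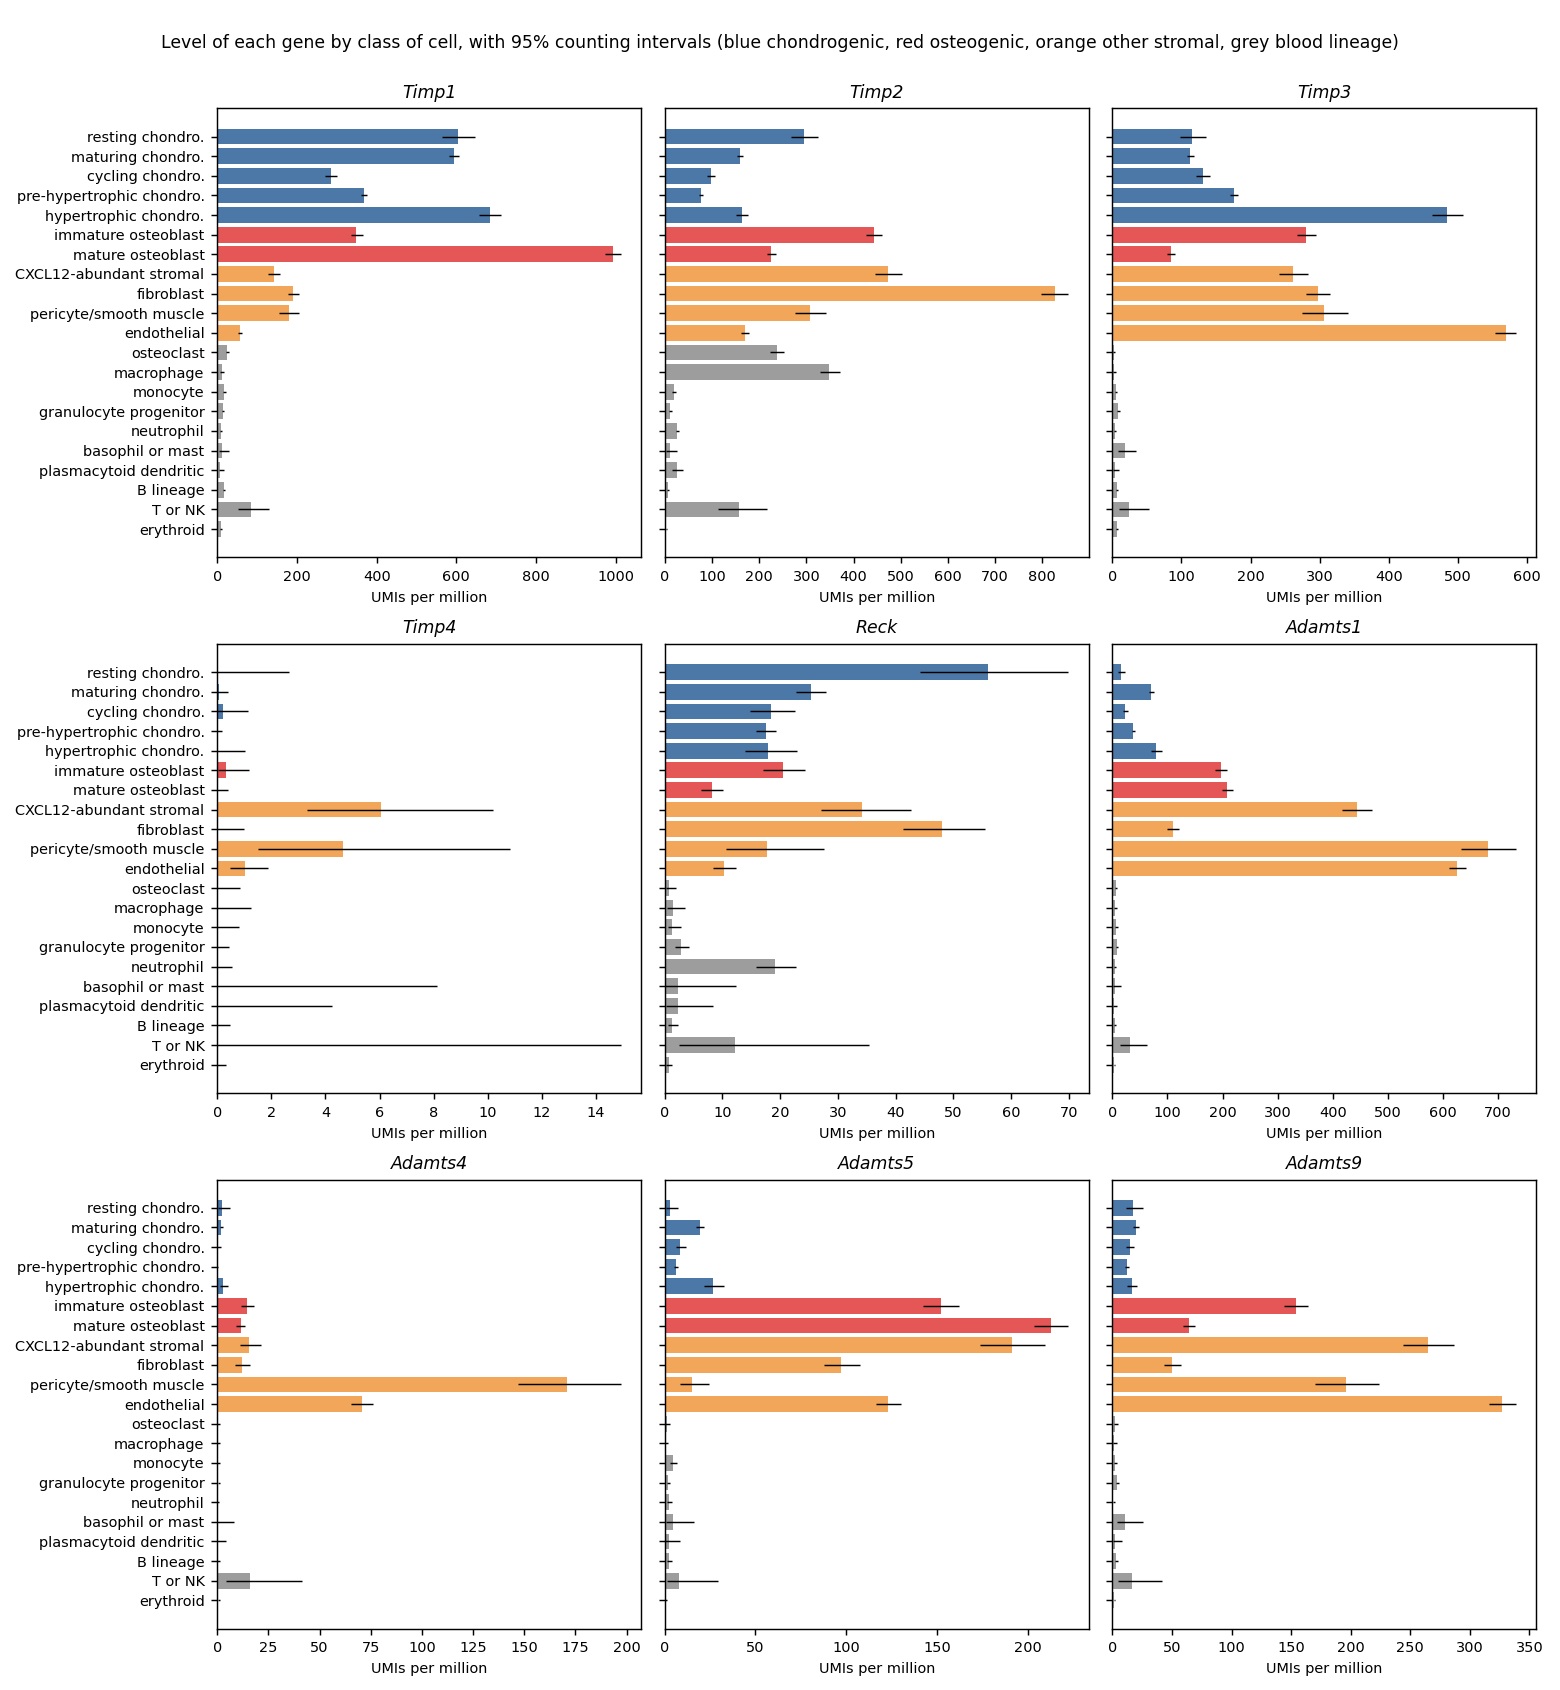
Levels of the 9 genes in 21 classes of cells, in CPM of the class, 1 panel per gene with its own axis from 0. Bars are class levels and lines their 95% counting intervals. Timp1 peaks in mature osteoblast-like cells (993 CPM), Timp2 in fibroblast-like cells (826 CPM), Timp3 in endothelial-like cells (569 CPM), and the 4 ADAMTS genes reach at most 79.9 CPM in the 5 chondrocyte-like classes.

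Adamts1 and Adamts9 were highest in the vessel wall and its neighbours, and low in cartilage. Adamts1 had 682 CPM (634 to 733, 735 UMIs) in pericyte or smooth muscle-like cells and 627 CPM (611 to 642) in endothelial-like cells, with overlapping intervals. With at most 5% mitochondrial UMIs the pericyte or smooth muscle-like level was 410.4 CPM. CXCL12-abundant stromal cells had 444 CPM (417 to 472), mature osteoblast-like cells 209 CPM and immature osteoblast-like cells 197 CPM. Chondrocyte-like classes had 15.1 CPM in resting, 23.3 CPM in cycling, 38.1 CPM in pre-HC, 70.8 CPM in maturing and 79.9 CPM in HC-like cells. Within the endothelial-like class, the 74 cells led by Eln, Stmn2 and Gja4 had 1328 CPM of Adamts1 (1246 to 1413), against 569 CPM (553 to 585) in the other 743 cells.

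Adamts9, which also acts in protein export from the endoplasmic reticulum, had 327 CPM (316 to 339) in endothelial-like cells, 265 CPM (244 to 286) in CXCL12-abundant stromal cells and 196 CPM (170 to 224) in pericyte or smooth muscle-like cells. The endothelial-like clusters did not differ in it beyond their counting intervals, at 322 CPM (283 to 366) and 328 CPM (316 to 340). Immature osteoblast-like cells had 154 CPM (144 to 164) and mature osteoblast-like cells 64.3 CPM (59.2 to 69.7). All 5 chondrocyte-like classes lay between 12.3 and 19.9 CPM.

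Adamts1 and Adamts9 were also the pair of these genes with the most similar pattern, with a Pearson correlation of 0.96 over the 21 classes on log2(CPM + 10). Their promoters are therefore shown. The bases are the 250 before the RefSeq start site in GRCm38.p6, read 5′ to 3′ on the minus strand, from chr16:85803114-85803363 for Adamts1 and chr6:92943535-92943784 for Adamts9. Capitals mark TGACG, the core of a cyclic AMP response element, which was searched on both strands.
Adamts1: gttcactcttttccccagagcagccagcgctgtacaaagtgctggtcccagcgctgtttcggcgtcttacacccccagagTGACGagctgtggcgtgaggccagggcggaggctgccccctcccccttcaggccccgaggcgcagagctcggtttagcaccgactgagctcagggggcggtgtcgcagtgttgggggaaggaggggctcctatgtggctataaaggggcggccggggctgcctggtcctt
Adamts9: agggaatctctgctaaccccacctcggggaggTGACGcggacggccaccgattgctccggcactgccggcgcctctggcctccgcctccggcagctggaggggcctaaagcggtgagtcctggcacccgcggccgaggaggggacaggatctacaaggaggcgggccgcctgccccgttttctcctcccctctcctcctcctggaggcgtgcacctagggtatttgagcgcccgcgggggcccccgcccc
The match begins 170 bases before the start of Adamts1 and 218 bases before that of Adamts9. Of 32851 promoters of this length, 17.8% hold TGACG, so a match in both is a description of these letters only. The promoters hold 65.6% and 71.2% G and C, against a median of 52.4% over all promoters. The table held 7 of the 9 genes, and among these Timp1 also had a match, 84 bases before its start. The full element TGACGTCA, which contains TGACG, is in 1.55% of all promoters, the AP-1 motif TGANTCA in 6.75%, the RUNX core TGTGGT in 14% and the ETS core CCGGAAG in 6.91%, and none of the 7 windows held any of these letters.

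Adamts4 was the most restricted of the proteases. Pericyte or smooth muscle-like cells had 171 CPM (147 to 197, 184 UMIs) and endothelial-like cells 70.7 CPM (65.5 to 76.1). With at most 5% mitochondrial UMIs the former level was 98.2 CPM. CXCL12-abundant, osteoblast-like and fibroblast-like cells had 11.4 to 15.6 CPM, with overlapping intervals between neighbours. In chondrocyte-like cells the aggrecanase was near background, with 45 UMIs in 1966 cells (0.976 CPM, 0.712 to 1.31) and at most 2.81 CPM in any class. T or NK-like cells had 16.2 CPM from 4 UMIs.

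Adamts5, the other aggrecanase, was highest in bone-forming cells. Mature osteoblast-like cells had 213 CPM (204 to 223, 1945 UMIs) and CXCL12-abundant stromal cells 191 CPM (174 to 209.9), with overlapping intervals, followed by immature osteoblast-like cells at 152 CPM (143 to 162). Chondrocyte-like cells had 11.9 CPM together, with 26.6 CPM (21.6 to 32.6) in HC-like, 19.2 CPM in maturing, 8.60 CPM in cycling, 5.93 CPM in pre-HC and 2.87 CPM in resting cells. Endothelial-like cells had 123 CPM (116 to 130.4), but the clusters differed: 133 CPM (126 to 141) in the 743 cells led by Fabp4 and Emcn and 5.35 CPM (1.46 to 13.7, 4 UMIs) in the 74 cells led by Eln and Gja4. The latter cells, with more Adamts1 than any other cluster, thus had few transcripts of its chromosomal neighbour. Fibroblast-like cells had 97.3 CPM. Pericyte or smooth muscle-like cells had 14.8 CPM.

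To compare how many cells held a gene, each cell was thinned to 5000 UMIs, with the erythroid-like share as background. Timp1 was found in 92.5% of mature osteoblast-like cells (89.6 to 94.8, exact Clopper-Pearson interval) and in 21.6% of endothelial-like cells, against 4.74% of erythroid-like cells. Without thinning the shares were 97.7%, 37.8% and 15.1%. Timp2 was found in 93.5% of fibroblast-like cells and in 61.5% of macrophage-like cells, against 1.58% of erythroid-like cells (99.4%, 78.2% and 5.82% without thinning). For Timp3 the share was 79.5% of endothelial-like cells, 69.2% of HC-like cells and 21% of mature osteoblast-like cells, against 1.58% of erythroid-like cells (88.2%, 86.9%, 40.2% and 5.97% without thinning). Adamts1 was found in 80.4% of pericyte or smooth muscle-like, 79.3% of endothelial-like and 6.50% of resting chondrocyte-like cells, against 1.74% of erythroid-like cells (88.1%, 88.2%, 12.8% and 5.03% without thinning). Adamts5 was found in 24.04% of endothelial-like cells (20.98 to 27.3) and in 49.5% of mature osteoblast-like cells (44.8 to 54.3), against 0.632% of erythroid-like cells (32.6%, 75.1% and 1.42% without thinning). Median depths were 18581 UMIs in mature osteoblast-like, 9002 in endothelial-like and 14018 in erythroid-like cells, and 89 endothelial-like, 3 erythroid-like and no mature osteoblast-like cells were too shallow to thin.

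Set against each other, the sum of the 4 TIMP genes varied less across the stroma than the sum of the 4 ADAMTS genes. TIMP sums lay between 515 CPM in cycling chondrocyte-like and 1333 CPM in HC-like cells. ADAMTS sums ran from 37.4 CPM in resting chondrocyte-like to 1148 CPM in endothelial-like cells. In resting chondrocyte-like cells there were 27.2 TIMP UMIs per ADAMTS UMI (20.6 to 36.5, with 52 ADAMTS UMIs), and in the other chondrocyte-like classes 7.75 to 11. Fibroblast-like cells had 4.88 TIMP UMIs per ADAMTS UMI, mature osteoblast-like cells 2.62 (2.53 to 2.71) and immature osteoblast-like cells 2.07 (1.99 to 2.16). The ratio was near 1 in CXCL12-abundant stromal cells, at 0.965 (0.908 to 1.03), and below 1 in pericyte or smooth muscle-like cells, at 0.750 (0.685 to 0.820), and endothelial-like cells, at 0.694 (0.674 to 0.715). In macrophage-like cells it was 56.5 (36.02 to 94.3), where 19 ADAMTS UMIs gave 6.42 CPM, a level at background. Under 9 other filters and clusterings the resting class ranged from 8.36 to 26.2 and the endothelial class from 0.680 to 0.719. Other ADAMTS genes were not in the sum, such as Adamts2 with 448 CPM in CXCL12-abundant stromal cells. These are ratios of transcripts, and amounts of protein were not measured.

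**Figure D2:**
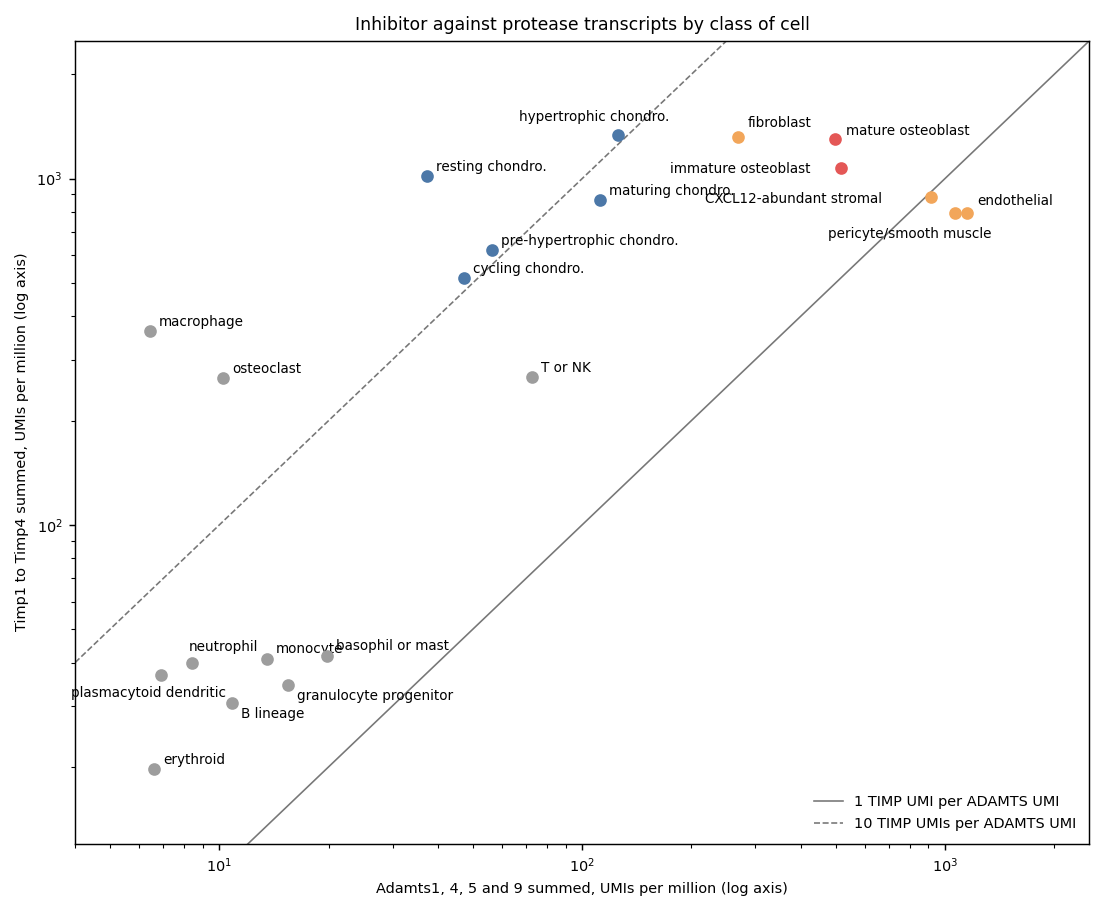
Summed level of the 4 TIMP genes (y axis) against the summed level of the 4 ADAMTS genes (x axis) in the 21 classes, both in CPM on log axes. Each point is a class, coloured blue for chondrocyte-like, red for osteoblast-like, orange for other stromal and grey for blood-lineage classes, and the lines mark 1 and 10 TIMP UMIs per ADAMTS UMI. Endothelial-like (0.694) and pericyte or smooth muscle-like cells (0.750) lie below the line of 1, and resting chondrocyte-like cells (27.2) lie above the line of 10.

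Which TIMP made up the sum also differed. Timp1 gave 76.2% of the TIMP UMIs in mature osteoblast-like cells and 51.4% to 68.5% in chondrocyte-like classes. Timp2 gave 62.9% in fibroblast-like and 53.7% in CXCL12-abundant stromal cells, and 96.2% in macrophage-like cells. Timp3 gave 71.4% in endothelial-like cells. Immature osteoblast-like cells were the most mixed of the osteoblast-like classes, with 32.5% Timp1, 41.3% Timp2 and 26.1% Timp3. On the protease side, Adamts1 was the largest part in most stromal classes, from 38.1% in immature osteoblast-like to 67.5% in pre-HC-like cells. It gave 54.6% in endothelial-like cells. The exceptions were resting chondrocyte-like cells, with 46.15% Adamts9 and 40.4% Adamts1, and mature osteoblast-like cells. In the latter, Adamts5 (42.8%) and Adamts1 (42.0%) gave similar parts. Adamts2 was not in the sum. It was above Adamts1 in immature osteoblast-like cells (256 against 197 CPM) and below it in endothelial-like cells (11.1 against 627 CPM). For Timp3 and the aggrecanases, which its product inhibits, there were 29.0 Timp3 UMIs per UMI of Adamts4 and Adamts5 in pre-HC-like cells and 16.4 in HC-like cells, against 1.68 in immature and 0.377 in mature osteoblast-like cells. Maturing chondrocyte-like cells had only 5.38, cycling ones 14.2 and resting ones 23, the last from 7 UMIs of the aggrecanases. Endothelial-like cells had 2.93 and fibroblast-like cells 2.72.

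**Figure D3:**
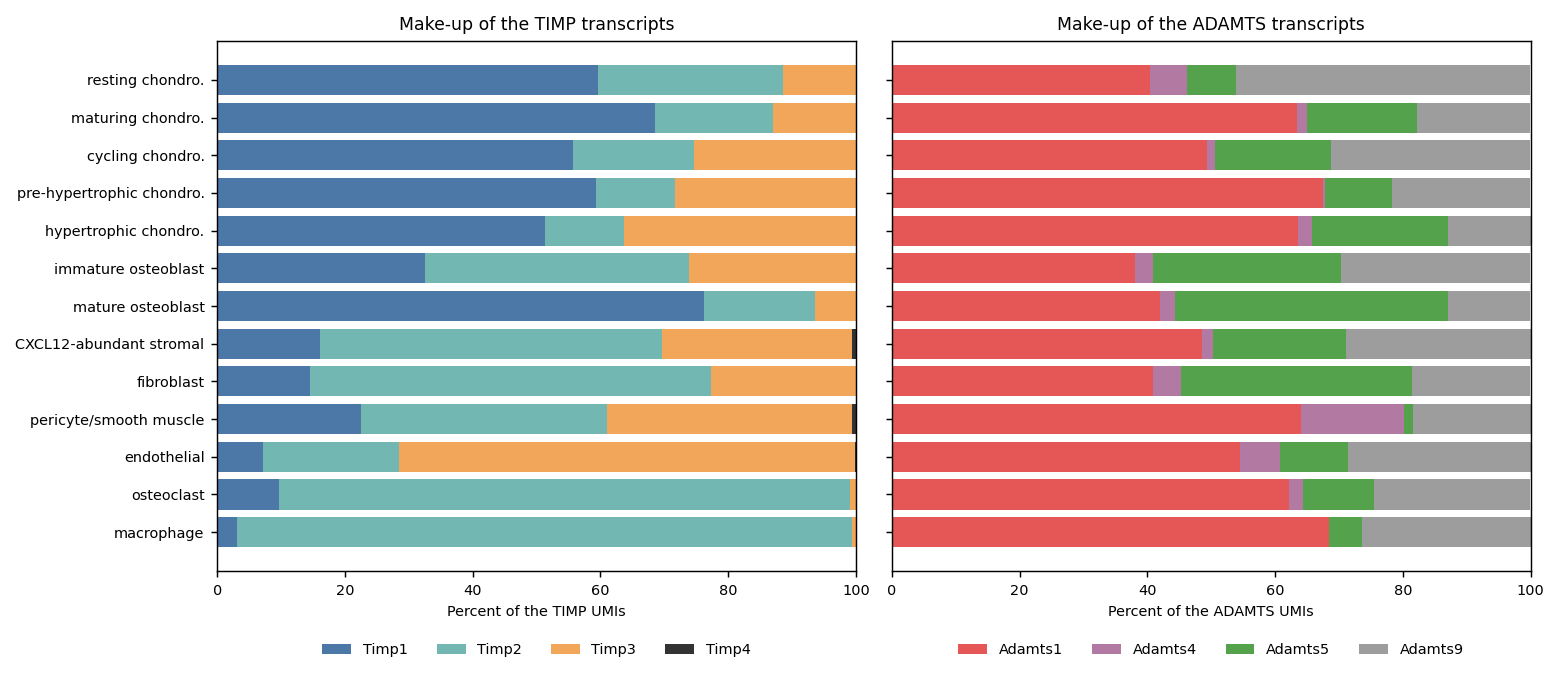
Percent of the TIMP UMIs (left) and of the ADAMTS UMIs (right) given by each gene in the 11 stromal classes, osteoclast-like and macrophage-like cells. Bars add up to the UMIs of Timp1 to Timp4 (left) and of Adamts1, Adamts4, Adamts5 and Adamts9 (right) in the class. Other ADAMTS genes are not included. Timp1 gives 76.2% in mature osteoblast-like cells, Timp3 71.4% in endothelial-like cells and Timp2 96.2% in macrophage-like cells, where the ADAMTS bar rests on 19 UMIs.

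The classes were then compared as groups, with log2 ratios taken after adding 1 CPM. A gene counted as different at 2-fold or more, provided that 1 of the groups had 10 CPM or more of it. A gene at this level in only 1 group could be counted only as higher in that group. Against blood-lineage cells, all 8 genes that reached this level were higher in stromal cells, where 23.2% of 9210 genes were at least 2-fold higher. Only Timp1 (14.1 CPM) and Timp2 (53.7 CPM) reached it in blood-lineage cells as well. The log2 ratios ran from 1.95 for Timp2 (210 against 53.7 CPM) to 5.06 for Timp3 (231 against 5.98 CPM), with a median of 4.59 over the 8 genes and of -0.14 over all genes tested. No gene of the 9 was lower by this measure, where 19.8% of all genes were, but only Timp1 and Timp2 could have been. With erythroid-like cells alone as the blood group, the log2 ratio of Timp2 was 5.52.

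Between osteogenic cells (immature and mature osteoblast-like, 941 cells) and chondrogenic cells (1966 cells), 5 of 8 genes were at least 2-fold higher on the osteogenic side, where 15.4% of 8198 genes were. They were the 4 proteases and Timp2. Adamts5 differed most, with 189 against 11.9 CPM and a log2 ratio of 3.88 (3.76 to 4.004). Adamts4 (12.6 against 0.976 CPM) had a log2 ratio of 2.78, Adamts9 (100 against 15.4 CPM) of 2.62, Adamts1 (204 against 49.4 CPM) of 2.03 and Timp2 (313 against 118 CPM) of 1.39. The other inhibitors stayed within 2-fold: Timp1 at 0.67, Timp3 at -0.09 and Reck at -0.67. No gene was at least 2-fold lower, where 9.67% of all genes were. Adamts4 reached 10 CPM on the osteogenic side only and could not have been. The median log2 ratio was 1.71 over the 8 genes and 0.16 over all genes tested. With CXCL12-abundant stromal cells counted as osteogenic, 5 genes were again higher.

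Between immature and mature osteoblast-like cells, the inhibitors differed in opposite directions. Timp1 was lower in immature cells (349 against 993 CPM, log2 ratio -1.50, -1.57 to -1.44), 1 of 8 genes where 4.82% of 8411 genes were at least 2-fold lower. Timp3 (281 against 84.5 CPM, 1.72), Adamts9 (154 against 64.3 CPM, 1.25) and Reck (20.4 against 8.10 CPM, 1.23, 0.84 to 1.63) were higher in immature cells, 3 of 8 genes where 18% of all genes were. Reck reached 10 CPM in immature cells only. Timp2 lay just inside the limit at 0.97. Adamts1 (-0.08, -0.19 to 0.02), Adamts4 (0.32, -0.07 to 0.71) and Adamts5 (-0.48) were within 2-fold. The median was 0.65 over the 8 genes and 0.49 over all genes tested. With at least 2000 genes per cell Timp1 (-0.91) and Adamts9 (0.97) no longer reached 2-fold, and at resolution 1.5 Timp2 (1.03) did.

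In HC-like against pre-HC-like cells, 4 of 7 genes were at least 2-fold higher, where 23.5% of 8083 genes were: Adamts5 (26.6 against 5.93 CPM, log2 ratio 1.997, 1.63 to 2.36), Timp3 (484 against 176 CPM, 1.46, 1.38 to 1.54), Timp2 (164 against 77.0 CPM, 1.08) and Adamts1 (79.9 against 38.1 CPM, 1.05). Timp1 was at 0.89 (0.09 to 0.57 in the other filters and clusterings) and Reck at 0.03 (-0.35 to 0.40). Adamts9 was at 0.38 and had no stable direction, with -0.62 at 2000 genes per cell, -1.13 at 5% mitochondrial UMIs and -0.93 with 3000 variable genes. No gene was at least 2-fold lower, where 5.94% were. Adamts5 reached 10 CPM in HC-like cells only and could not have been. The median was 1.05 over the 7 genes and 0.48 over all genes tested. Adamts1 was below 2-fold in all 9 other filters and clusterings (0.41 to 0.79) and reached it again with a mean over cells (1.16). The count was 2 with at least 2000 genes per cell, 1 with at most 5% mitochondrial UMIs and 1 with 3000 variable genes. The log2 ratio of Timp3 lay between 1.20 and 1.52 in all alternatives, while that of Adamts5 lay between 0.40 and 2.17.

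Endothelial-like cells were compared with chondro-osteogenic cells (2907 cells). All 4 proteases and Timp3 were at least 2-fold higher, 5 of 8 genes where 30.2% of 8939 genes were. The log2 ratios were 3.88 for Adamts4 (70.7 against 3.87 CPM), 3.13 for Adamts9 (327 against 36.4 CPM), 2.82 for Adamts1 (627 against 87.8 CPM), 1.73 for Timp3 (569 against 171 CPM) and 1.13 for Adamts5 (123 against 55.8 CPM). Adamts4 reached 10 CPM in endothelial-like cells only. The pooled group held more chondrogenic (1966) than osteogenic cells (941). Adamts5 had 11.9 CPM in the former and 189 CPM (182 to 196) in the latter, above its endothelial-like level. Adamts1, Adamts4, Adamts9 and Timp3 were higher in endothelial-like than in osteogenic cells as well. Timp1 was lower, at 57.6 against 530 CPM with a log2 ratio of -3.18 (-3.30 to -3.06), where 13.9% of all genes were. Timp2 was at 169 against 167 CPM, a log2 ratio of 0.02 (-0.05 to 0.10), and Reck at -0.85. The median was 1.43 over the 8 genes and 0.43 over all genes tested. With a mean over cells in place of summed UMIs, Adamts5 (0.68) no longer reached 2-fold and Reck (-1.01) did.

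**Figure D4:**
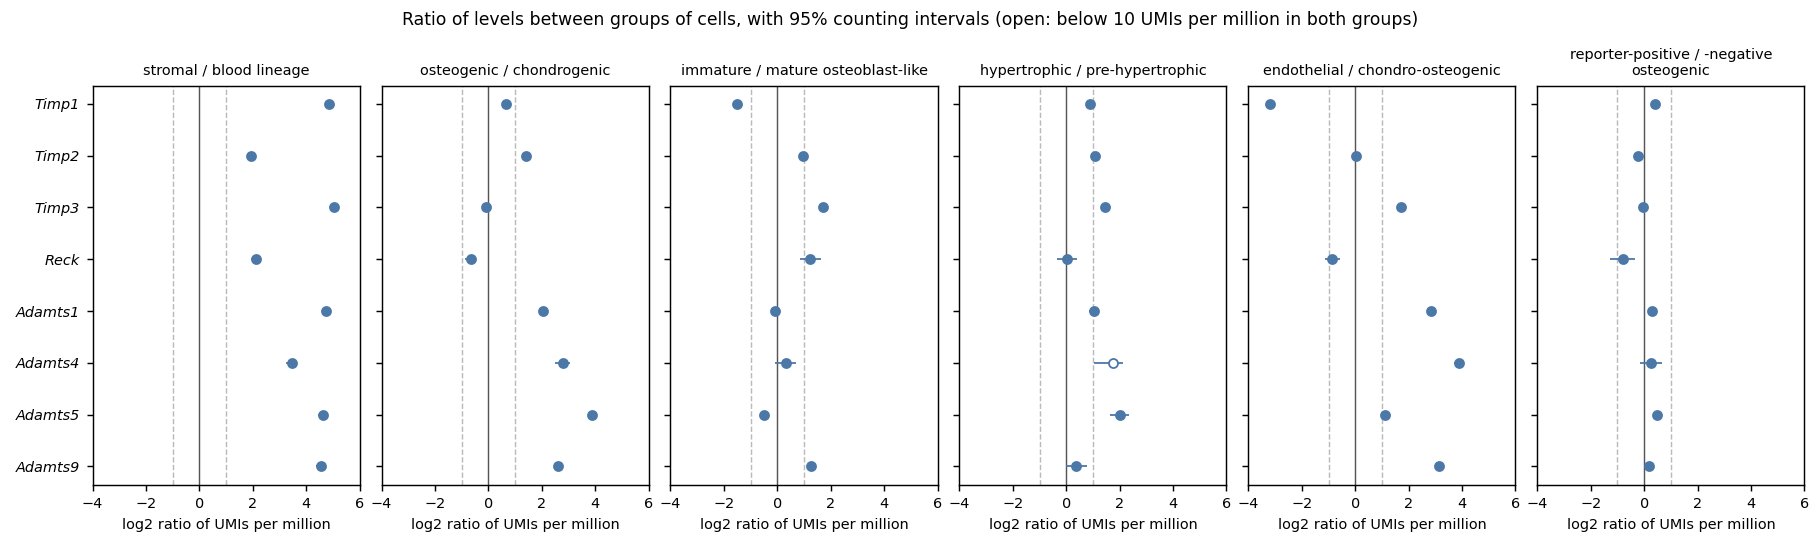
Log2 ratio of CPM (1 CPM added) between the first and the second group named above each panel, for 8 genes. Points are ratios, lines their 95% counting intervals, dashed lines 2-fold, and the open point a gene below 10 CPM in both groups. Osteogenic cells exceed chondrogenic cells in the 4 ADAMTS genes (2.03 to 3.88), and reporter-positive and reporter-negative osteogenic cells differ by less than 2-fold in all genes shown.

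Osteogenic cells that descend from HCs were called from more than 14 WPRE UMIs. The call marked 83.2% of HC-like cells (74.7 to 89.7), 18.5% of immature (15.2 to 22.2) and 34.2% of mature osteoblast-like cells (29.8 to 38.9), and 1.69% of pre-HC-like cells. Between the 243 positive and 698 negative osteogenic cells none of 8 genes differed by 2-fold, where 0.774% of 7881 genes were higher and 1.57% lower. Timp1 was at 891 against 668 CPM (log2 ratio 0.41, 0.36 to 0.47), Adamts5 at 236 against 168 CPM (0.49), Adamts1 at 235 against 191 CPM (0.30) and Reck at 8.23 against 15.1 CPM (-0.80, -1.29 to -0.33). Since the classes held unlike shares of positive cells, the ratios were also taken within each. In immature cells Timp1 was at 551 CPM in 93 positive and 296 CPM in 410 negative cells (0.90, 0.76 to 1.03), and in mature cells at 1021 and 976 CPM (0.06, 0.00 to 0.13). Adamts5 was higher in positive cells of both classes, by 0.38 (0.16 to 0.59) and 0.43 (0.30 to 0.56), and so was Adamts9, by 0.36 and 0.50. Over both classes together Adamts9 was at 0.18, and at -0.15 with at most 5% mitochondrial UMIs. Timp3 was at 0.53 (0.33 to 0.74) in mature and 0.12 (-0.04 to 0.29) in immature cells, and Adamts4 at -0.11 (-0.68 to 0.44) and 0.90 (0.25 to 1.52). Reck was lower in positive cells of both classes, at -0.53 (-1.26 to 0.15) and -0.65 (-1.35 to 0.03), with intervals that include 0. The CXCL12-abundant class, not counted as osteogenic here, had 35 positive and 172 negative cells. In its positive cells Adamts5 (-0.43, -0.83 to -0.04) and Timp3 (-0.60, -0.96 to -0.26) were lower. Reck was at 0.65 (-0.13 to 1.37) there, Adamts9 at 0.10 (-0.20 to 0.39) and Adamts1 at 0.34 (0.12 to 0.55). Positive osteogenic cells were deeper, with a median of 16209 against 13194 UMIs together. The medians were 11390 against 10599 in immature and 19001 against 18458 in mature cells. The part of depth and of the Irx3 allele in these ratios was not tested.

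Dissociation of tissue is known to raise immediate early genes such as Fos and Egr1, so a list of 13 immediate early and stress genes was set beside the 9 genes. The summed level of the list ran from 4017 CPM in HC-like to 8664 CPM in resting chondrocyte-like cells within the stroma, and was 6708 CPM in endothelial-like and 492 CPM in erythroid-like cells. Against blood-lineage cells, 11 of the 13 genes were at least 2-fold higher in stromal cells, where 23.2% of all genes tested were. The 8 genes described here that were tested, without Timp4, were higher as well, most of them at 10 CPM in stromal cells only. Each stromal class was then split at the median of the list's share of a cell's UMIs. In endothelial-like cells the list was at 9758 CPM in the upper and 3387 CPM in the lower part. The same cells had 845 against 389 CPM of Adamts1 (log2 ratio 1.12, 1.04 to 1.20), 95.7 against 43.4 CPM of Adamts4 (1.12, 0.89 to 1.36), 169 against 73.6 CPM of Adamts5 (1.19, 1.01 to 1.37), 367 against 284 CPM of Adamts9 (0.37) and 643 against 489 CPM of Timp3 (0.39). Fibroblast-like cells had 150.3 against 71.1 CPM of Adamts1 (1.07, 0.77 to 1.37), HC-like cells 106 against 57.5 CPM (0.87, 0.52 to 1.22) and resting chondrocyte-like cells 27.1 against 2.90 CPM (2.85, 1.09 to 4.50), the last from 21 UMIs. In pericyte or smooth muscle-like cells Adamts1 was at 736 against 635 CPM (0.21) and Adamts4 at 138 against 198.5 CPM (-0.52). In mature osteoblast-like cells Adamts1 was at 226 against 191 CPM (0.24), Adamts5 at 196 against 230.3 CPM (-0.23) and Timp3 at 70.2 against 99.2 CPM (-0.49), and the log2 ratio of Timp1 was -0.02 (-0.08 to 0.04). The part of the handling of the tissue in these levels was not tested.

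**Figure D5:**
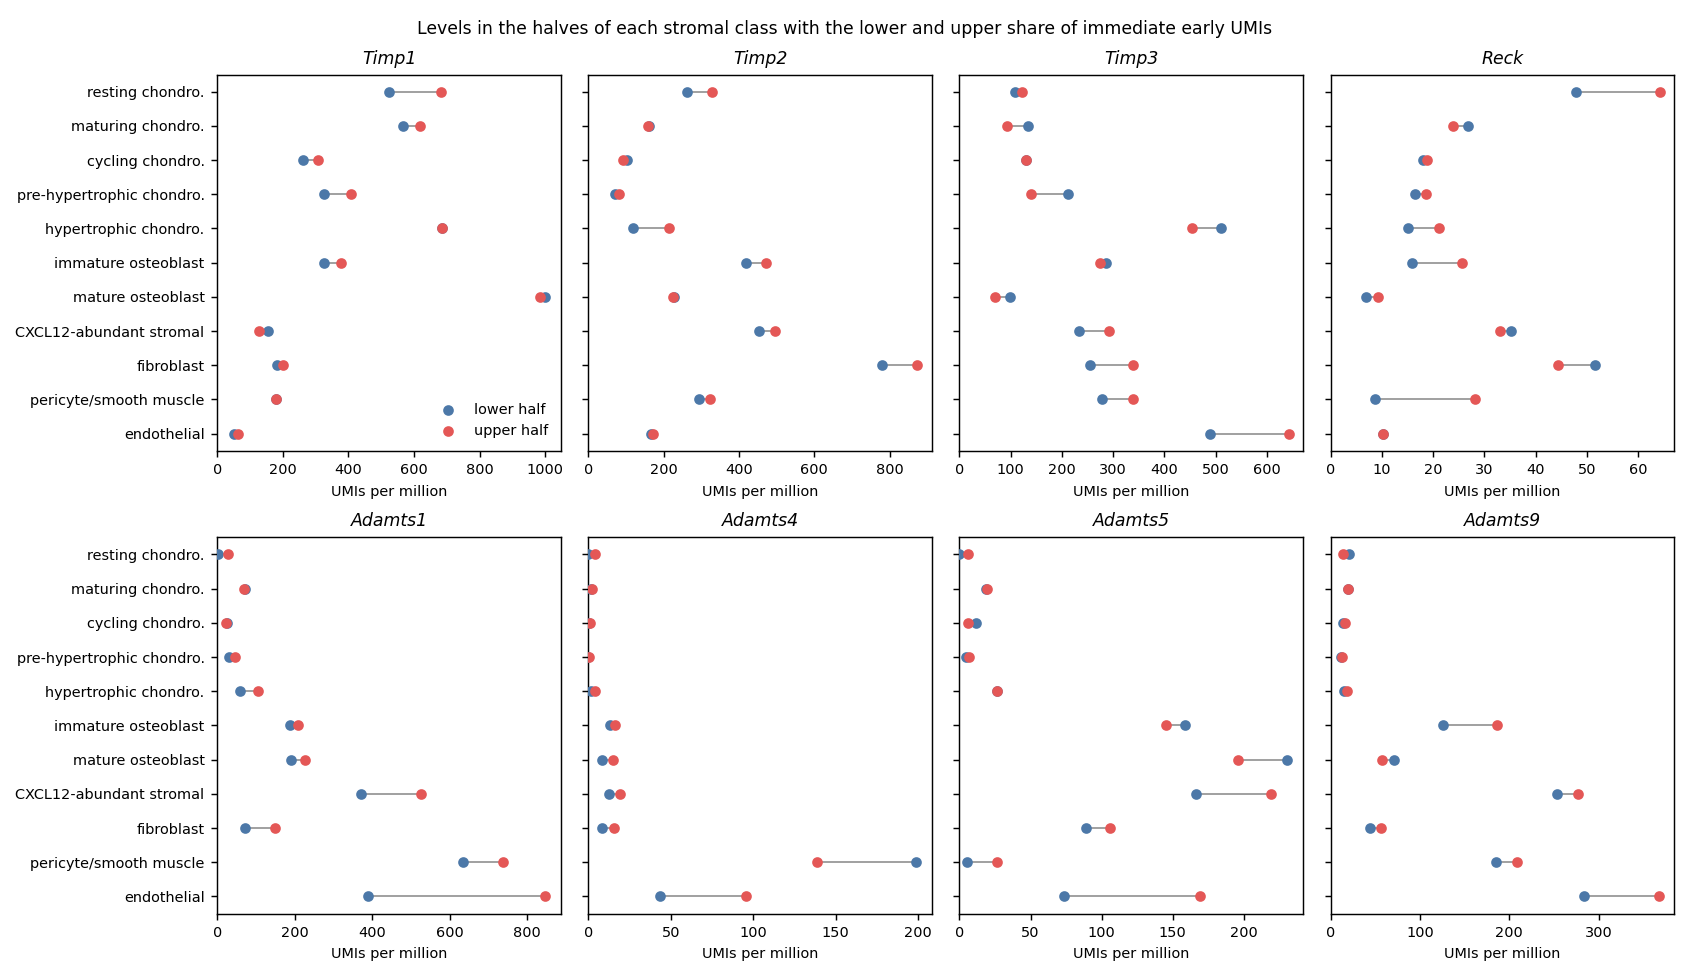
Levels of 8 genes in CPM in the 11 stromal classes, for the cells with the lower (blue) and the upper (red) share of immediate early and stress UMIs, split at the median of each class. Adamts1 in endothelial-like cells shows the widest gap in CPM of its panel, 389 against 845 CPM, while Timp1 in mature osteoblast-like cells shows little (1001 against 984 CPM).

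Of the 15 other ADAMTS proteases, 8 reached 10 CPM in a class. Adamts2, a procollagen N-proteinase, was highest among them, with 448 CPM (421 to 476) in CXCL12-abundant stromal cells and 346 CPM in pericyte or smooth muscle-like cells. Adamts14, of the same family, was highest in mature osteoblast-like cells at 23.1 CPM, Adamts12 and Adamts15 in pericyte or smooth muscle-like cells at 39.9 and 27.8 CPM, and Adamts10 in fibroblast-like cells at 41.3 CPM. Of these 15, all 4 that were tested were at least 2-fold higher in osteogenic than in chondrogenic cells (Adamts2, Adamts10, Adamts14 and Adamts17), against 15.4% of all genes tested, with a median log2 ratio of 1.96. These 4 passed the limit of 10 CPM only through the osteogenic cells, so none could have been counted as lower. The other genes of the list were not tested. Between endothelial-like and chondro-osteogenic cells, 1 of 3 was higher (Adamts7) and 1 lower (Adamts2), against 30.2% and 13.9% of all genes tested. Of 7 ADAMTS-like genes, which lack the protease domain, 6 reached 10 CPM, and 4 of these (Adamtsl1, Adamtsl3, Adamtsl4 and Adamtsl5) were highest in fibroblast-like cells at 15.2 to 34.4 CPM.

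The MMPs are the main targets of the TIMPs. Of 17 MMP genes 12 reached 10 CPM. Mmp13 was highest in CXCL12-abundant stromal cells at 4953 CPM, Mmp9 in immature osteoblast-like cells at 1413 CPM, Mmp14 in immature osteoblast-like cells at 791 CPM and Mmp2 in fibroblast-like cells at 679 CPM. All 6 that were tested were higher in osteogenic than in chondrogenic cells, against 15.4% of all genes tested, with a median log2 ratio of 3.32. By contrast, 5 of 7 were lower in endothelial-like than in chondro-osteogenic cells (median -3.15), against 13.9% of all genes tested, where the 4 ADAMTS genes were higher. Against osteogenic cells alone, Adamts5 was not higher. Of 9 ADAM proteases 8 reached 10 CPM, and 5 of 6 tested were higher in osteogenic cells, against the same 15.4%. Among the proteoglycan and matrix substrates, Acan, which encodes aggrecan, was highest in pre-HC-like cells at 6919 CPM, a class with 0.138 CPM of Adamts4 and 5.93 CPM of Adamts5. Vcan, which encodes versican, was highest in immature osteoblast-like cells at 657 CPM, where Adamts1, Adamts5 and Adamts9 lay between 152 and 197 CPM. All 7 substrates tested were lower in endothelial-like cells, against the same 13.9%. Of the RECK partners, Adgra2 was highest in CXCL12-abundant stromal cells at 72.4 CPM, Wnt7b in HC-like cells at 10.7 CPM, and Wnt7a had 1 UMI in its highest class.

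For 8 genes, the genes with the most similar pattern over the 21 classes were named from 10366 others with at least 20 CPM in a class, by Pearson correlation on log2(CPM + 10). All points come from 1 library and share its classes, so the values are a description. Timp2 was most like Mmp14 (0.94), its partner at the cell surface, and next like Xylt2 (0.89) and Kif1c (0.89). Timp1 was most like Praf2 (0.97), Zfp9 (0.97) and P3h1 (0.97), Timp3 like Nckap1 (0.97), Dlc1 (0.97) and Cavin3 (0.96), and Reck like Hectd2 (0.90), Fzd2 (0.89) and Pam (0.89). Adamts4 was most like Mcam (0.97), Kcnj8 (0.96) and Tspan12 (0.96), and Mcam and Kcnj8 are pericyte genes. Kcnj8 is also on the marker list that named the pericyte or smooth muscle-like class, so its likeness to Adamts4 adds nothing to that class's level. Adamts5 was most like Pdgfd (0.95), Tmtc2 (0.95) and Gja1 (0.95), Adamts1 like Adamts9 (0.96), Zcchc14 (0.95) and Ptprk (0.95), and Adamts9 like Ptprg (0.96), Rapgef4 (0.96) and Adamts1 (0.96). Among these 8 genes themselves, with Timp4 not compared, Timp3 was nearer to Adamts1 (0.85) and Adamts9 (0.81) than to Timp1 (0.79) or Timp2 (0.64). The correlation of Timp3 with Adamts5 (0.72) and Adamts4 (0.60) was below that with Timp1 and with Reck (0.73). The least alike pair was Timp1 and Adamts4 (0.27).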

How the data were processed

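Cells of the tibiae were run on a 10X Genomics platform. The authors made the deposited UMI counts per gene and barcode with Cell Ranger 3.1.0 from a mm10 reference that also held tdTomato and WPRE, without normalization. UMI counts of WPRE come from a second deposited matrix of added sequences. The labels also name Seurat 3. For the annotation release, the sources used here give no name. A P56 sample was not analysed here. Of 31053 gene identifiers, 30934 matched GENCODE M21.

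Cells with at least 1600 genes (the limit in the study's methods), at most 10% mitochondrial and at most 50% ribosomal protein UMIs were kept. After scaling to 10000 UMIs per cell and a log transform, Leiden clustering at resolution 1 used 2000 variable genes, 30 principal components and 20 neighbours (scipy 1.17.1, scanpy 1.11.5, Python 3.11.15, seed 1). All Timp, Reck, Adamts, Adamtsl, Mmp and Pth1r genes were left out of the variable genes. Clusters were named by the list, of 26, with the most markers among their 30 leading genes (at least 2, and 3 found at 10 CPM). Clusters with over 40% doublet calls stayed unnamed. The naming limits were chosen with the clusters in view. Scrublet at an expected rate of 10% marked 588 barcodes (4.15%), which were kept. Stromal stands for the named classes that are not of the blood lineage.

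Ratio intervals hold the sum of both groups' UMIs fixed. The fold calls and ratio intervals were checked on simulated Poisson counts. These hold no spread between cells, no mixed clusters and no free RNA, so they do not check the classes. With 1 library no test was made. All 9 genes are reported, and other genes come from 8 lists or by the rule for similar patterns. The 9 genes and the lists were chosen with earlier results of these data known. The alternatives are given in the closing section. Some further values are not reported here.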

Additional observations from a re-analysis of the deposited data

How the results depend on the processing

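The counts of genes that differed by 2-fold were taken again under 19 other settings, and 143 of 148 such counts stayed within 1.5 times. These include counts that were 0 above, such as both counts for reporter-positive cells, where 0 against 0 was taken as unchanged. The exceptions were the genes higher in HC-like than pre-HC-like cells (4), of which 2 remained in number with a minimum of 2000 genes, 1 with at most 5% mitochondrial UMIs and 1 with 3000 variable genes, the gene lower in immature osteoblast-like cells (1), which was 0 with a minimum of 2000 genes, and the genes lower in endothelial-like cells (1), which were 2 with a mean over cells. Of 581 log2 ratios, which include those within 2-fold, none that was called changed its sign. Some ratios within 2-fold did. Adamts9 in HC-like against pre-HC-like cells ran from -1.13 to 0.97, and Adamts4 in immature against mature osteoblast-like cells from -0.29 to 0.44. Timp1, Timp2, Adamts4 and Adamts9 had the same highest class in 10 of 10 other filters, clusterings and averages, Timp3, Adamts1 and Adamts5 in 9, Timp4 in 3 and Reck in 2, with fibroblast-like cells highest for Reck in the others. CXCL12-abundant stromal cells formed no class at resolution 0.6 or with at most 5% mitochondrial UMIs, so their values could not be taken there. The settings with CXCL12-abundant cells counted as osteogenic and erythroid-like cells alone as blood were chosen after seeing the data. No paired analysis was possible because all values come from 1 library, and its 4 entries cannot be left out in turn since they are counted together. Classes of 30 cells or fewer (T or NK-like, basophil or mast-like) rest on few UMIs.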

Other observations

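At resolution 1.5, 13 cells formed a Schwann-like cluster in which all 4 markers of the list reached 10 CPM, and all 13 lay in the maturing chondrocyte-like class above. They were singled out after their values were seen. They had 964 CPM of Timp3 (785 to 1171, 101 UMIs), above the 569 CPM of endothelial-like cells, 229 CPM of Adamts5 (147 to 341, 24 UMIs) and 334 CPM of Adamts1 (233 to 465, 35 UMIs), while Timp1 had 57.3 CPM (6 UMIs). In the whole maturing class Timp3 had 1635 UMIs and Adamts5 278 UMIs.

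Among the cells left unnamed, 211 cells led by Tnf, Ccl3 and Treml4 with 502 CPM of Ptprc had 54.1 CPM of Timp2 and 2.94 CPM of Reck, and 63 cells led by Ctla2a, Hmga2 and Flt3 had 12.7 CPM of Timp2. In HC-like cells Adamts4 had 3 UMIs in 89 reporter-positive and 7 UMIs in 18 reporter-negative cells. Timp1 was at 726 against 331 CPM (log2 ratio 1.13, 0.87 to 1.41). The positive HC-like cells were deeper, with a median of 35646 against 19969 UMIs, and the part of depth in these values was not tested.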
